A study of Mus musculus with 27 samples.

Results

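The genes described here encode the proteins of the cytosolic ribosome. They were taken by name, as every gene of the deposited tables whose symbol is Rpl or Rps followed by digits and at most a single letter a, x or l, together with Rplp0, Rplp1, Rplp2 and Rpsa. Pseudogenes named with -ps and the S6 kinases were left out by the same rule, which used no measured value. It takes 82 of the 35275 genes in the tables, 32 of the small subunit and 50 of the large subunit. In the annotation used to place genes, GENCODE M21, 80 of them are protein coding, while Rps4l and Rpl6l are annotated as processed pseudogenes.

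The libraries came from CD8 T cells of mice of 3 genotypes, WT P14+, Lin28bTg P14+ and Let-7Tg P14+, here called WT, lin28Tg and let-7Tg, at 3 stages with 3 libraries each. All mice, controls included, carried the transgenic P14 T cell receptor on a Rag2-/- background, were 6 to 10 weeks old, and per the study's methods drank doxycycline, which induces the let-7g transgene of let-7Tg mice. Lin28 protein blocks the maturation of let-7 miRNAs, so that lin28Tg cells are the counterpart low in mature let-7. Naive cells were not treated. Cells of the 12 h stage were activated with anti-CD3 antibody at 2 μg/mL and anti-CD28 antibody at 5 μg/mL, with doxycycline at 2 μg/mL in the medium. Cells of day 5 (5d) were cytotoxic T lymphocytes (CTLs) made with anti-CD3 antibody at 2 μg/mL and irradiated splenocytes, given IL-2 at 100 U/mL at 48 h and kept for 3 more days, with doxycycline at 2 μg/mL. Stimulus, culture and deposited table thus change together with the stage, and their parts in a difference between stages cannot be told apart. The study calls its replicates biological, but the labels tie no library to an animal, so p-values measure the spread between these libraries. In bulk RNA, fewer cells of a type and less RNA per cell cannot be told apart.

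A ribosome is built from ribosomal RNA and about equal amounts of each of its proteins, which join a small subunit that reads the mRNA and a large subunit that joins amino acids. Most ribosomal protein mRNAs start with a C followed by a run of pyrimidines, the 5′ terminal oligopyrimidine (5′TOP) motif. Through this motif, the kinase mTORC1 and the RNA-binding protein LARP1 set how much of these mRNAs is translated and stored, so the mRNA level of a ribosomal protein is not a measure of its synthesis. Resting T cells translate little, and on activation they grow, make ribosomes and increase translation before they divide.

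Annotated start sites were searched for such a run of pyrimidines. RefSeq start windows of 30 bases, 15 before and 15 from the start site on, were found for 60 of the 82 genes. They are given on GRCm38.p6, in the 5′ to 3′ direction of the gene, with the longest run of C and T in capitals. The next 6 are from genes that the results below turn on or whose role is described, each with a run of at least 8 pyrimidines.
Rps6, chr4:86857353-86857382, minus strand: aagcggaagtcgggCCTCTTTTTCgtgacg
Rpl38, chr11:114668565-114668594, plus strand: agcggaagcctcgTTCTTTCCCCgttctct
Rps27, chr3:90213634-90213663, minus strand: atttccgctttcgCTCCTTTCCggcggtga
Rplp2, chr7:141447636-141447665, plus strand: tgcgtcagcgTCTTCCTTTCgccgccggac
Rpl35, chr2:39005117-39005146, minus strand: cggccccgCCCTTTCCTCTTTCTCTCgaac
Rpl28, chr7:4792950-4792979, plus strand: ccgcctctcgtgTCTCTCTTTCCgtctccg

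The 3 genes that follow had large differences between stages. In Rps2 and Rpl41 the longest run is short, and in Rps27l it lies before the annotated start site.
Rps27l, chr9:66946071-66946100, plus strand: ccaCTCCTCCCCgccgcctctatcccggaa
Rps2, chr17:24720048-24720077, plus strand: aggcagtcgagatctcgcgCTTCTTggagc
Rpl41, chr10:128549154-128549183, minus strand: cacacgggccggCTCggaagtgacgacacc

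A run of at least 8 pyrimidines stood in 26 of the 60 windows (43.3%), against 13.9% of the 27025 genes in the same RefSeq table. The share was 41.7% among 12 other genes with 5′TOP mRNAs and 13% among 69 genes of the mitochondrial ribosome. A C stood at the annotated start site in 31.7% of the ribosomal protein windows and in 18.9% of all windows. The letters CTTTC on the coding strand stood in 28.3% of the ribosomal protein windows, against 4.76% of all windows, and can lie inside a pyrimidine run. TATAAA on the coding strand, searched upstream of the start, was found for 0 of the 60 genes and for 2.42% of all genes. These matches describe the letters at annotated starts, and a start site a few bases off moves the run out of its place.

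Libraries held 13862706 to 23591069 reads counted to genes (median 16761374), and 7.87% to 10.9% of these reads fell on the 82 genes. Lin28b, the gene of the lin28Tg transgene, was between 9.94 and 67.9 FPKM (fragments scaled to gene length and to the counted fragments of the library) in the 9 lin28Tg libraries and at most 0.0590 FPKM in the other 18. All 8 CD8 T cell markers were above 1 FPKM in every library. Markers of other cells differed between genotypes at each stage. The 10 myeloid markers summed to 194 to 807 FPKM in naive lin28Tg, 39.1 to 60.8 FPKM in naive WT and 24.9 to 61.6 FPKM in naive let-7Tg. The 7 erythroid markers summed to 494 to 1994 FPKM, 153 to 292 FPKM and 1.92 to 38.7 FPKM in the same order, and the 8 dendritic cell markers to 1136 to 3162 FPKM, 317 to 553 FPKM and 267 to 578 FPKM. At 5d the 5 NK cell markers summed to 138 to 300 FPKM in lin28Tg, 67.3 to 94.0 FPKM in WT and 18.1 to 47.0 FPKM in let-7Tg. At 5d, 1 library stood apart, let-7Tg replicate 2, where 8 of 6414 genes, Rpl12 among them, were more than 8-fold below every other 5d library. The part of these differences in the results below was not tested, and values without single libraries are given where they matter.

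Of the 82 genes, 75 averaged more than 100 FPKM over the 27 libraries, between 243 and 3995 FPKM with a median of 1648 FPKM. FPKM is a level per length, so these levels can be compared between genes only within the limits of shared sequence and overlap given below. The highest were Rplp0 with 3995 FPKM on average, the base of the stalk that recruits translation factors, which lies at chr5:115559467-115563727 on the plus strand, and Rpl13a with 3723 FPKM. Rplp1, a further stalk protein, averaged 3586 FPKM, Rps2, at the mRNA entry of the small subunit, 3206 FPKM, and Rpl41, the shortest ribosomal protein, 2748 FPKM. Rpl23a averaged 98.5 FPKM, and most of its sequence is shared with other genes, as given below.

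The other 6 genes averaged under 10 FPKM. Among the 5 lowest, the paralogues Rps4l and Rpl39l averaged 1.18 and 0.825 FPKM and Rpl6l averaged 0.234 FPKM. Rpl3l, a paralogue of Rpl3 known from striated muscle, averaged 0.0813 FPKM, and Rpl10l, which replaces Rpl10 in the testis, was listed at 0 in every library. Their usual partners Rps4x, Rpl3, Rpl10 and Rpl39 were all among the 75 high genes. Rpl24, a protein of the large subunit, was listed at 2.27 FPKM on average, from 10 to 35 reads in a library. A transcript on its strand, Gm28037, overlaps it and was listed at 0 in all 27 libraries. Reads that fit both genes may have been set aside in the counting, which was not tested, so the level of Rpl24 and its differences below are uncertain. Rpl6l, Rpl3l and Rpl10l did not pass the filter on low values at any stage. Of the 82 genes, 78 were tested among naive and among 5d cells and 79 among 12 h cells and in the fit of all 27 libraries, and the others passed no filter because of low values.

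Ribosomal protein genes have many processed copies in the genome. Of the 82 genes, 78 shared at least a stretch of 50 bases with a transcript of another gene, and the median gene shared 45.9% of its stretches. The 255 -ps genes of these families took 0.0424% to 0.0762% of the summed FPKM. Reads that fit several genes may have been dropped or split by the counting, so levels of single genes carry this uncertainty. Among genes named here, Rpl35 shared 89.2%, Rpl23a 85.7%, Rps2 71.7% and Rpl29 66.8% of stretches. Rps27 shared 42.2% and Rps27l 17.9% of stretches. Another gene overlaps 23 of the 82 genes, 19 of them on the opposite strand only, and as the sources name no strand of the libraries, reads of such pairs cannot be told apart. Rpl35 is overlapped by Arpc5l and Wdr38, at most 66.0 FPKM, and Rpl28 by Ube2s, at most 361 FPKM.

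The 82 genes together took 15.9% to 20.4% of the summed FPKM of a library. In WT the share was 18.8% ± 0.490 (SD, n = 3) in naive cells, 19.5% ± 0.303 at 12 h and 17.7% ± 0.139 at 5d. In lin28Tg it was 17.6% ± 1.29, 17.7% ± 0.302 and 16.5% ± 0.601, and in let-7Tg 17.2% ± 1.14, 19.6% ± 0.819 and 17.1% ± 0.256 at the same stages. The 3 lin28Tg libraries of 12 h, with 17.5% to 18.1%, lay below the 3 WT libraries, with 19.3% to 19.8%, and below the 3 let-7Tg libraries, with 18.7% to 20.4%. At 5d the 3 WT libraries lay above both transgenic groups. Among naive cells the 3 WT libraries, with 18.3% to 19.3%, lay above the 3 let-7Tg libraries, with 16.0% to 18.2%, and lin28Tg, with 16.4% to 18.9%, overlapped both.

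**Figure D1:**
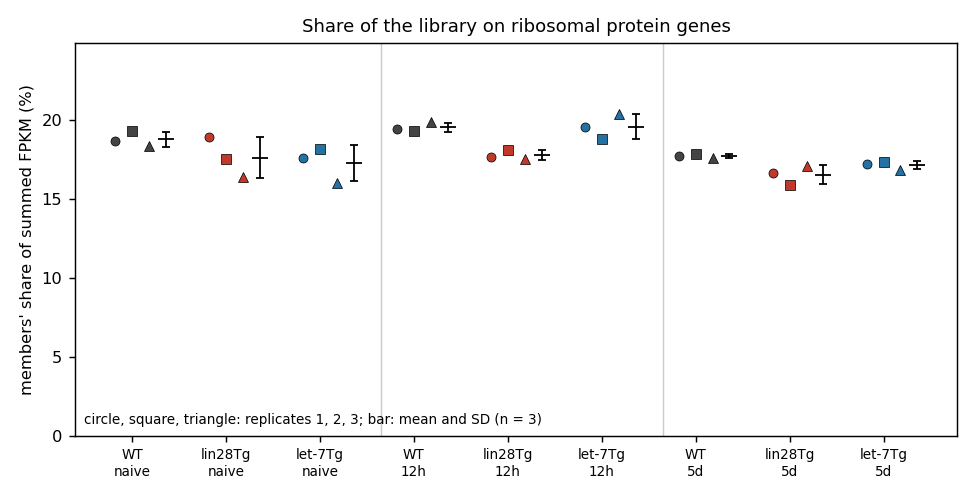
Share of the summed FPKM of each library that fell on the 82 cytosolic ribosomal protein genes, in percent, for 9 groups of 3 libraries; points are libraries and bars are the mean and SD. The shares lie between 15.9% and 20.4%, and lin28Tg lies below WT and let-7Tg at 12 h.

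At 12 h of activation, ribosomal protein mRNAs were mostly higher than in naive cells relative to other mRNAs. In WT, 51 of the 79 tested genes were higher and 2 were lower (limma, Benjamini-Hochberg adjusted p under 0.05). In this comparison 71% of all 14453 tested genes were called, with 34.6% of all tested genes higher and 36.4% lower. The difference of the median gene was 0.35 on the log2 scale, 0.14 without scaling between libraries, while the median of all genes was -0.05 and, without scaling, -0.18. Differences are of log2 (scaled FPKM + 0.5), which understates changes of low genes. In lin28Tg 49 genes were higher and 1 lower with a median of 0.38, where 73.5% of all genes were called and 35.9% were higher. In let-7Tg 55 were higher and 1 lower with a median of 0.47, where 69.3% were called and 34.4% were higher. The unscaled medians were 0.10 and 0.24. In deposited FPKM the balance was more even. In WT 44 of the 79 genes lay above the naive libraries at 12 h without overlap and 17 below, where 31.7% and 45.4% of all genes did, in lin28Tg 34 and 18, where 30.2% and 47.9% did, and in let-7Tg 40 and 8, where 29.4% and 43.4% did. The same 46 genes were higher in all 3 genotypes, which is 90.2% of the WT calls, 93.9% of the lin28Tg calls and 83.6% of the let-7Tg calls. The same overlap over all genes is not given here, so this one is not shown to be particular to ribosomal protein genes.

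The subunits differed in their counts. In WT, 33 of 47 large subunit genes were higher at 12 h and 0 lower, with a median difference of 0.50, while 18 of 32 small subunit genes were higher and 2 lower, with a median of 0.25. In lin28Tg the medians were 0.45 for the large and 0.21 for the small subunit, and in let-7Tg 0.61 and 0.34. No test of the difference between subunits was made.

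The largest increase in all 3 genotypes was that of Rps27l, a small subunit paralogue of Rps27 and a target of p53. In naive cells Rps27l was at 74.6, 76.5 and 65.7 FPKM in the 3 WT libraries, at 117, 149 and 129 FPKM in lin28Tg and at 75.4, 79.7 and 72.8 FPKM in let-7Tg. At 12 h it was at 365, 323 and 357 FPKM in WT, at 320, 378 and 342 FPKM in lin28Tg and at 423, 371 and 402 FPKM in let-7Tg. Every 12 h library exceeded every naive library, and among naive libraries the 3 lin28Tg libraries were the highest. The log2 difference was 2.47 ± 0.11 (SE, n = 3 per group) in WT, 1.68 ± 0.11 in lin28Tg and 2.62 ± 0.11 in let-7Tg, with adjusted p = 1.76e-14, 1.19e-11 and 6.9e-15 (limma). Its partner Rps27, the small subunit zinc finger protein, went the other way. Rps27 was at 420, 376 and 395 FPKM in naive WT and at 212, 225 and 233 FPKM in WT at 12 h, groups that did not overlap, and fell by 0.62 on the log2 scale in WT (SE 0.13, adjusted p = 0.000148) and by 0.60 in let-7Tg (adjusted p = 0.000222). In lin28Tg, where naive Rps27 was lower (305, 240 and 277 FPKM), the difference to 12 h (190, 188 and 186 FPKM) was -0.26 with adjusted p = 0.0709 (limma). Rps27rt, a gene outside the naming rule whose sequence is close to that of Rps27, also fell, by 0.52 in WT.

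**Figure D2:**
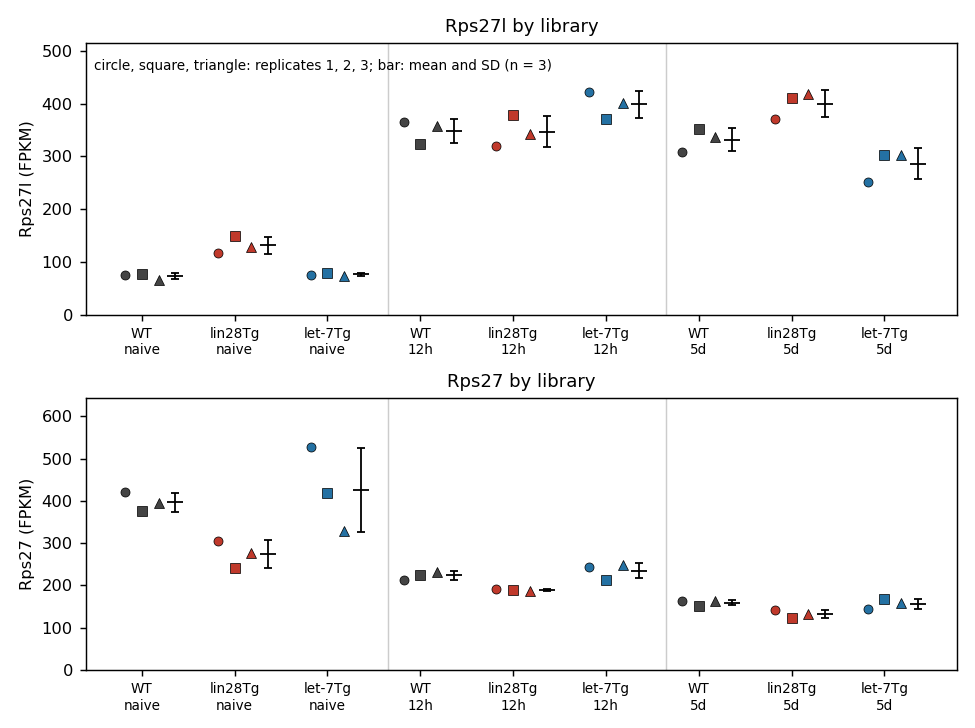
FPKM of the paralogues Rps27l (top) and Rps27 (bottom) in each library of 9 groups; points are replicates and bars are the mean and SD of 3 libraries. Rps27l rises from between 65.7 and 149 FPKM in naive cells to between 320 and 423 FPKM at 12 h, while Rps27 is highest in naive cells.

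Among genes at the decoding side of the small subunit, Rps2 was at 2206, 2330 and 2320 FPKM in naive WT and at 4265, 4291 and 4386 FPKM in WT at 12 h. The groups lay far apart, and the log2 difference was 1.13 ± 0.12 in WT (adjusted p = 1.57e-08, limma), 1.16 in lin28Tg and 1.60 in let-7Tg. Rpl41, at a contact between the subunits, rose from 1872, 1963 and 1921 FPKM to 3412, 3181 and 3686 FPKM in WT, again without overlap. Its log2 difference was 1.05 ± 0.12 in WT (adjusted p = 4.56e-08, limma) and 1.15 in let-7Tg. Rpl29, a protein of the large subunit surface, was at 813, 820 and 813 FPKM in naive WT and at 1331, 1329 and 1361 FPKM at 12 h, a log2 difference of 0.93 ± 0.22 (adjusted p = 0.000634, limma). In let-7Tg Rpl29 rose by 1.16 from 462, 478 and 719 FPKM to 1016, 1238 and 862 FPKM, and these 6 libraries were more spread than those of WT. Rpl7a was among the 4 largest increases in lin28Tg, with a log2 difference of 0.93 ± 0.10 (adjusted p = 1.55e-08, limma). Rps16, whose tail reaches the peptidyl site, was lower in WT at 12 h, with 3029, 3322 and 3145 FPKM in naive cells and 2185, 2306 and 2333 FPKM at 12 h, and fell by 0.26 (adjusted p = 0.0294, limma). The call of Rps16 was lost in 4 of the 6 fits that left out a library. Rpl17, at the exit tunnel, fell by 0.23 in lin28Tg (adjusted p = 0.0253, limma), a call lost in 3 of 6 such fits.

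Genes with described roles in WT at 12 h were divided. Of the stalk proteins, which recruit elongation factors, Rplp2 rose by 0.34 on the log2 scale (adjusted p = 0.00221, limma), from 1831, 1889 and 1789 FPKM to 1918, 2072 and 2041 FPKM. Rplp0 had a difference of 0.22 (adjusted p = 0.0789) and Rplp1 of -0.08 (adjusted p = 0.54). Rplp1 shows what scaling does, since its 12 h libraries, with 3520, 3611 and 3749 FPKM, all lay below its naive libraries, with 4222, 4836 and 4311 FPKM, as deposited. Rps6, the small subunit protein that S6 kinases phosphorylate downstream of mTORC1, rose by 0.29 (adjusted p = 0.0166), and Rpsa, also known as the laminin receptor, by 0.24 (adjusted p = 0.0385). In both the deposited FPKM of naive and 12 h WT overlapped.

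Rps27a, made as a fusion with ubiquitin, rose by 0.67 ± 0.10 in WT (adjusted p = 1.72e-06, limma), and Rps25, needed by some viral internal ribosome entry sites, by 0.71 ± 0.09 (adjusted p = 6.05e-07). Rpl38, known for a role in the translation of Hox mRNAs in the embryo, rose by 0.87 ± 0.12 (adjusted p = 1.35e-06), from 818, 819 and 834 FPKM to 1289, 1208 and 1401 FPKM. Rpl22, which αβ T cells need for their development in the thymus, rose by 0.61, Rpl10, which joins the large subunit late in its assembly, by 0.52, and Rpl10a, of the stalk that releases tRNA, by 0.55. Of the pair that forms the 5S particle and binds Mdm2, Rpl11 rose by 0.46 (adjusted p = 0.000112), while Rpl5 had a difference of 0.12 (adjusted p = 0.286, limma). Rpl3, near the peptidyl transferase centre, rose by 0.69, Rpl23 by 0.29 and the X-linked Rps4x by 0.32. Rps19, mutated in Diamond-Blackfan anaemia, had a difference of 0.02 (adjusted p = 0.859), Rps3 of 0.16 (adjusted p = 0.144), Rpl13a of -0.20 (adjusted p = 0.0995) and Rpl39, of the exit tunnel, of 0.11 (adjusted p = 0.406).

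Genes that build or serve the ribosome differed more than its proteins. In WT at 12 h, 35 of 35 ribosome biogenesis genes were higher than in naive cells, with a median log2 difference of 2.23, among them Ncl (3.25) and Npm1 (3.06), abundant proteins of the nucleolus. Of 17 tested chaperones of ribosomal proteins, 16 were higher and 1, Nop53 (-0.24), was lower, with a median of 1.82. Of 13 genes of elongation factors and related proteins, Eef2k, Etf1, Pelo and Hbs1l among them, 12 were higher and 0 lower (median 1.37). Eef1e1 was at 2.91 and Eif5a, which promotes peptide bonds between prolines, at 2.71. All 6 tested host transcripts of small nucleolar RNAs with 5′TOP ends were higher (median 1.69), with Snhg5 at 2.11. Of 19 other genes with 5′TOP mRNAs, 16 were higher and 2 lower (median 1.02). Tpt1, which fell by 0.69, and Fau, which encodes a further ribosomal protein and fell by 0.28, were the 2 lower genes. Of 77 tested genes of the mitochondrial ribosome, 74 were higher and 1 lower (median 1.29). Of 2450 other genes under 1 kb, 867 were higher and 820 lower, with a median of -0.02. These are counts and medians beside the 0.35 of the cytosolic ribosomal proteins and the -0.05 of all genes, and no test compared the lists.

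**Figure D3:**
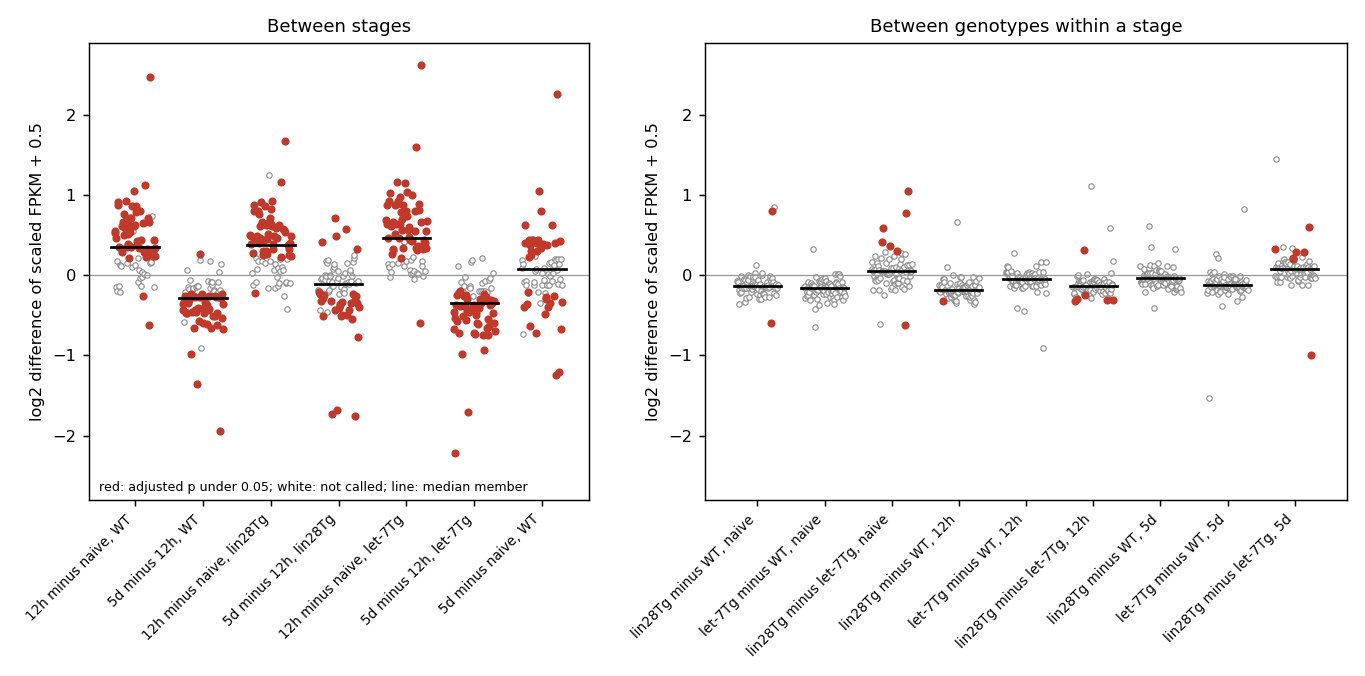
Difference on the log2 (scaled FPKM + 0.5) scale of each tested cytosolic ribosomal protein gene, between stages within a genotype (left) and between genotypes within a stage (right); red points passed an adjusted p of 0.05 (limma), white points did not, and black lines are the median gene. Medians between stages run from -0.34 to 0.47, and those between genotypes from -0.19 to 0.08.

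Between 12 h and 5d most called ribosomal protein genes were lower in CTLs. In WT 48 of 79 genes were lower and 1 higher, in a comparison where 67.3% of all genes were called and 33.7% were lower. The median difference was -0.29 and, without scaling, -0.15. In let-7Tg 51 were lower and 0 higher with a median of -0.34 (unscaled -0.19), where 67.2% of all genes were called and 33.7% were lower. The genes called came to 66 without let-7Tg 12h replicate 2, where 65.3% of all genes were called. Without let-7Tg 5d replicate 2 they came to 48, where 62.4% of all genes were called. In lin28Tg 27 were lower and 5 higher with a median of -0.11 (unscaled -0.07), where 66.2% of all genes were called and 32.7% were lower. The same 24 genes were lower in all 3 genotypes, which is 50% of the WT calls, 88.9% of the lin28Tg calls and 47.1% of the let-7Tg calls. For all genes this overlap is likewise not given. In deposited FPKM 46 genes of WT lay lower at 5d without overlap and 6 higher, where 31% and 38.6% of all genes did, in lin28Tg 37 and 12, where 35.3% and 37.4% did, and in let-7Tg 40 and 5, where 29.8% and 38.9% did. In WT 18 of 32 small subunit genes were lower (median -0.26) and 30 of 47 large subunit genes (median -0.33).

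Rpl35, at the mouth of the exit tunnel, had the largest decrease of the high genes in WT. It was at 373, 378 and 404 FPKM in WT at 12 h and at 193, 160 and 148 FPKM at 5d. In lin28Tg it went from 394, 403 and 368 FPKM to 121, 114 and 127 FPKM, and in let-7Tg from 394, 322 and 458 FPKM to 122, 148 and 125 FPKM. All 9 libraries of 5d lay below all 9 of 12 h, and all but WT replicate 1 also lay below the naive range of 180 to 348 FPKM. Rpl35 fell by 1.35 on the log2 scale in WT (SE 0.16, adjusted p = 1.58e-07, limma), by 1.73 in lin28Tg and by 1.71 in let-7Tg. Rps9, beside the mRNA entry, fell by 0.67 in WT (adjusted p = 2.59e-05) and by 0.77 in lin28Tg, with 2569, 2644 and 2683 FPKM in WT at 12 h and 1936, 1876 and 1668 FPKM at 5d.

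Rps2 was at 3905, 3199 and 2994 FPKM in WT at 5d, below its 12 h libraries and above its naive ones. In let-7Tg it went from 4501, 4653 and 5116 FPKM to 2806, 2817 and 2692 FPKM and fell by 0.93 (adjusted p = 3.75e-07, limma). The stalk genes fell in WT, Rplp0 by 0.44, Rplp1 by 0.40 and Rplp2 by 0.61, as did Rpsa by 0.36, Rps27a by 0.48, Rps25 by 0.51, Rps3 by 0.27, Rpl5 by 0.24, Rpl11 by 0.33, Rpl10 by 0.43 and Rpl10a by 0.36, all with adjusted p under 0.05 (limma). Not called in WT were Rps6 (0.14), Rps19 (-0.09), Rpl22 (-0.18), Rpl13a (-0.20), Rpl23 (-0.06), Rpl38 (0.19), Rpl41 (-0.25), Rps4x (-0.18) and Rpl3 (-0.25). The low genes Rps4l and Rpl24, which rest on few reads, fell by 1.94 and 0.98 in WT (adjusted p = 2.1e-05 and 0.000257). Rpl39l, likewise low, fell by 1.68 in lin28Tg (adjusted p = 0.0213), a call lost in 2 of 6 fits that left out a library.

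A few genes rose from 12 h to 5d. Rpl39 was the 1 such gene in WT, at 1223, 1109 and 1201 FPKM at 12 h and at 1416, 1632 and 1629 FPKM at 5d, with a log2 difference of 0.26 ± 0.11 (adjusted p = 0.0441, limma), a call lost in 4 of 6 fits that left out a library. In lin28Tg the 5 were Rpl38 (0.71, adjusted p = 2.48e-05), Rps15a (0.58, adjusted p = 1.34e-05), Rpl39 (0.48, adjusted p = 0.000724), Rpl17 (0.41, adjusted p = 0.000269) and Rps6 (0.32, adjusted p = 0.00872). Rpl38 was at 1008, 1111 and 989 FPKM in lin28Tg at 12 h and at 1689, 1653 and 1887 FPKM at 5d, and the groups did not overlap. At 5d it was also higher in deposited FPKM in WT (1419, 1738 and 1750) and let-7Tg (1387, 1535 and 1525) than at 12 h, where WT was at 1289, 1208 and 1401 and let-7Tg at 1119, 1114 and 1337.

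In the other lists, 35 of 35 ribosome biogenesis genes were lower in WT at 5d than at 12 h (median -1.96), and 64 of 77 mitochondrial ribosome genes were lower and 1 higher (median -0.76). Of 13 genes of elongation factors and related proteins 10 were lower (median -0.79). Of 19 other 5′TOP genes 15 were lower and 1, Eif3f (0.36), was higher.

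Set against naive cells, WT CTLs of 5d had 24 of 79 ribosomal protein genes higher and 15 lower. Of all genes 65.3% were called, 31.9% higher and 33.5% lower. The median of the ribosomal protein genes was 0.08. This median was between 0.04 and 0.13 when a library was left out and 0.0094 without scaling. In deposited FPKM the balance turned, with 27 genes above the naive libraries without overlap and 31 below, where 30.7% and 38.7% of all genes did so. Of the 24, 19 were large subunit genes and 5 small subunit genes. The largest increases were Rps27l (2.27), at 308, 351 and 337 FPKM at 5d, Rpl38 (1.06), Rpl41 (0.80) and Rpl15 (0.62), all with adjusted p under 0.05 (limma). The largest decreases were Rps27 (-1.24), at 163, 152 and 162 FPKM at 5d, Rps4l (-1.20), Rpl35 (-0.72) and Rps7 (-0.68). Mitochondrial ribosome genes were higher in 56 of 77 cases and lower in 4 (median 0.49) in the same comparison.

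Across the 9 groups each gene was set against the median ribosomal protein gene, and no other gene list was measured this way. The departure of a gene from the median ribosomal protein gene varied over the groups with an SD of 0.16 on the log2 scale in the median gene, and 63 of the 79 tested genes had an SD under 0.25. The 5 genes that departed most were Rps27l (SD 0.98), Rps4l (0.76), Rpl12 (0.67), Rpl35 (0.60) and Rps27 (0.59). Rps27l lay below its own average in the 3 naive groups and above it in the 6 others, and Rps27 was above in naive cells and below at 12 h and 5d. Rps4l rests on levels of at most 4.54 FPKM.

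**Figure D4:**
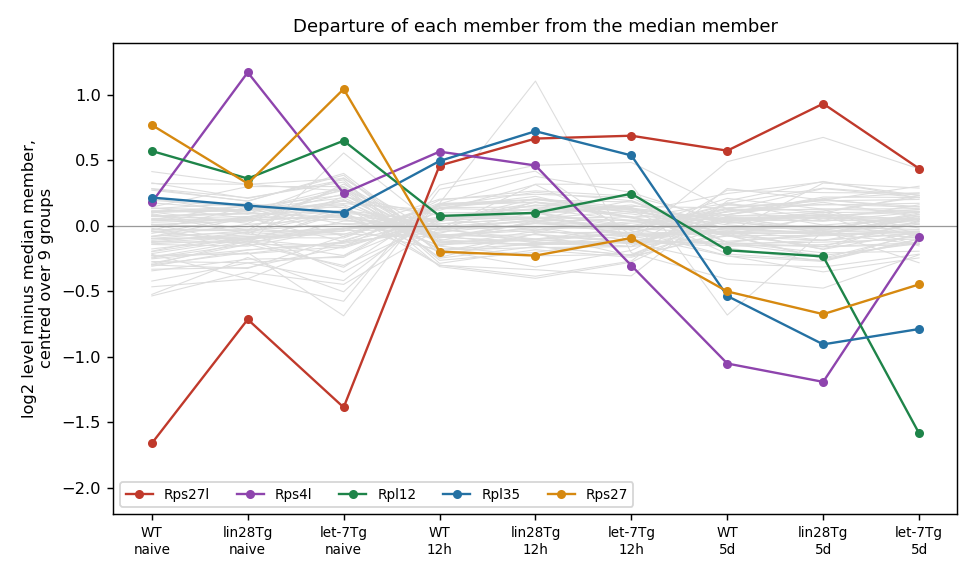
Log2 level of each tested gene minus that of the median cytosolic ribosomal protein gene, centred over the 9 groups; coloured lines are the 5 genes with the largest SD and grey lines the other genes. The SD is 0.98 for Rps27l and 0.16 for the median gene.

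Rpl12, the protein at the base of the stalk, owes its place to a single library. In let-7Tg at 5d it was at 1765, 96.4 and 1678 FPKM, while WT was at 1962, 1755 and 1812 FPKM and lin28Tg at 1732, 1577 and 1718 FPKM. Replicate 2 of let-7Tg lay far below the 8 other 5d libraries, and it is the library that stands apart in 8 genes. Rpl12 fell by 2.22 from 12 h to 5d in let-7Tg (adjusted p = 0.00262, limma) and by 0.82 without this library (adjusted p = 6e-06). In WT it had 2431, 2575 and 2513 FPKM at 12 h, above its 5d values, but the shared spread of the fit left the difference of -0.58 at adjusted p = 0.409. Rpl29 also varied within groups at 5d, with 764, 1288 and 834 FPKM in WT, 837, 1291 and 1397 FPKM in lin28Tg and 1345, 1328 and 793 FPKM in let-7Tg. Its libraries of 5d lay either between 764 and 837 FPKM or between 1288 and 1397 FPKM, in each genotype.

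**Figure D5:**
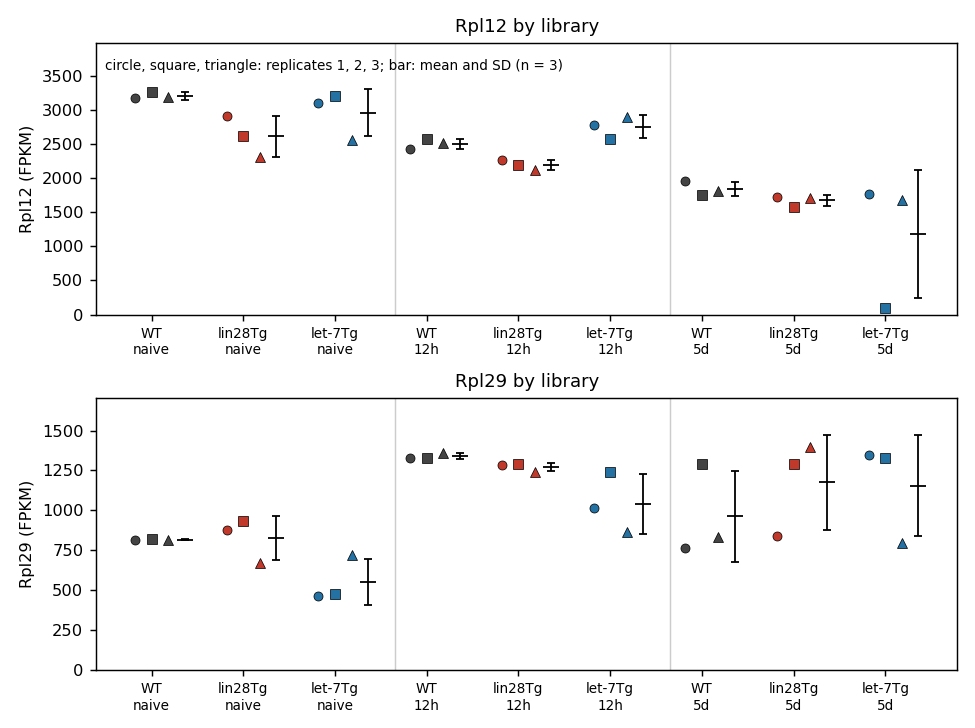
FPKM of Rpl12 (top) and Rpl29 (bottom) in each library of 9 groups; points are replicates and bars are the mean and SD of 3 libraries. Rpl12 is at 96.4 FPKM in let-7Tg 5d replicate 2 and at 1577 to 1962 FPKM in the other 5d libraries, and Rpl29 at 5d lies between 764 and 837 FPKM or between 1288 and 1397 FPKM.

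Among naive cells lin28Tg and WT differed in 2 ribosomal protein genes, Rps27l higher and Rps27 lower, of 78 tested, where 34.9% of all genes were called, 19% higher and 15.8% lower. In 10 of the 78 genes the lin28Tg libraries lay below the WT libraries and in 2 above, while 20.8% and 28.2% of all genes did so. Rps27l, with 117, 149 and 129 FPKM in lin28Tg against 74.6, 76.5 and 65.7 FPKM in WT, was higher by 0.80 ± 0.09 (SE, n = 3 per group, adjusted p = 0.000429, limma). Rps27, with 305, 240 and 277 FPKM against 420, 376 and 395 FPKM, was lower, with a difference of -0.60 ± 0.16 (adjusted p = 0.0161). Neither pair of groups overlapped. The Rps27 call was lost in 2 of 6 fits that left out a library, and the Rps27l call in none of them. The median difference of the 78 genes was -0.14, against -0.04 for all genes. It was -0.04 without lin28Tg replicate 3 and -0.08 without scaling. The myeloid, erythroid and dendritic cell marker sums of naive lin28Tg lay above those of WT, and their part in these differences was not tested.

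In naive let-7Tg against WT 0 of 78 genes were called, where 0.934% of all genes were (limma), 0.301% higher and 0.633% lower. An unadjusted p under 0.05 was found for 16 of the 78 and for 1932 of all 13277 genes. The median difference of the 78 was -0.16, against -0.01 for all genes, and 74 of the 78 differences were negative. Leaving out let-7Tg replicate 2 gave a median of -0.23, leaving out let-7Tg replicate 3 one of -0.10, and the unscaled median was -0.11. In 22 genes the 3 let-7Tg libraries lay below the 3 WT libraries as deposited, while 7.28% of all genes did so. After scaling they lay below in 31, while 10.9% of all genes did so. In 0 of the 78 genes let-7Tg lay above WT, while 16.7% of all genes did. The largest differences among genes without overlap were Rpl29 with -0.64 (adjusted p = 0.127), at 462, 478 and 719 FPKM against 813, 820 and 813 FPKM, and Rpl28 with -0.42 (adjusted p = 0.152), at 1313, 1623 and 1271 FPKM against 1772, 1883 and 1722 FPKM. Gm13841, a processed pseudogene that shares sequence with Rpl29, had 13, 22 and 0 reads in these let-7Tg libraries and 0 in WT. Its part in the Rpl29 difference was not tested. Of 35 ribosome biogenesis genes 6 were lower in let-7Tg and 0 higher (median -0.26), Rrp12 (-0.61) and Bysl (-0.58) among them. The erythroid marker sums of naive let-7Tg lay below those of WT, and their part was not tested.

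Between naive lin28Tg and let-7Tg 6 genes were higher in lin28Tg and 1 lower, where 44.2% of all genes were called, 23% higher and 21.2% lower. In 8 genes lin28Tg lay above let-7Tg as deposited and in 2 below, while 27.2% and 26.8% of all genes did so. Rps27l was higher by 0.78 ± 0.09 (adjusted p = 0.000275, limma), with let-7Tg at 75.4, 79.7 and 72.8 FPKM. Rps27 was lower, with a difference of -0.62 ± 0.16 (adjusted p = 0.0102), with let-7Tg at 528, 419 and 329 FPKM. Rpl28, which occurs in mammals and not in yeast, was higher by 0.42 (adjusted p = 0.0202), at 1968, 1879 and 1762 FPKM in lin28Tg. Rpl41 was higher by 0.37 (adjusted p = 0.0272), at 2388, 2213 and 1987 FPKM against 1691, 1829 and 1567 FPKM, and Rps12, a small subunit protein, by 0.30 (adjusted p = 0.0432). These 5 did not overlap, whereas Rpl29 (0.59) and Rps4l (1.05) were called with overlapping groups. The calls of Rpl41 and Rps12 were lost in 4 and those of Rpl28 in 3 of 6 fits that left out a library. The median difference of the 78 genes was 0.05, between -0.03 and 0.14 when a library was left out. In the same comparison 23 of 35 ribosome biogenesis genes were higher in lin28Tg and 0 lower (median 0.29), and 27 of 77 mitochondrial ribosome genes were higher and 1 lower (median 0.19). The myeloid, erythroid, dendritic and NK cell marker sums of naive lin28Tg lay above those of let-7Tg, and their part was not tested.

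At 12 h deposited levels of most ribosomal protein genes lay lower in lin28Tg than in WT, by a small amount that carried only 1 gene past the test. In 66 of 79 genes the 3 lin28Tg libraries lay below the 3 WT libraries and in 0 genes above, while 15.2% of all genes lay below and 19.6% above. After scaling the number below was 64, where 16.9% of all genes lay below. Of the 79 differences 77 were negative, with a median of -0.19 against -0.01 for all genes and between -0.18 and -0.17 under the other scalings. Only Rpl17 was called, where 8.49% of all genes were, 6.1% higher and 2.39% lower. Of the 79 genes 26 had an unadjusted p under 0.05 (limma), and 2970 of all 12239 genes did. Rpl17 was at 1281, 1306 and 1260 FPKM in lin28Tg and at 1578, 1584 and 1586 FPKM in WT, a difference of -0.32 ± 0.08 (adjusted p = 0.0407, limma). That call was lost in all 6 fits that left out a library. In a fit of only the 6 libraries compared 28 genes were called, where 12.2% of all genes were, 8.49% higher and 3.68% lower.

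Single genes lay apart by similar amounts. Rpl30 was at 848, 913 and 861 FPKM in lin28Tg and at 1076, 1015 and 1048 FPKM in WT (-0.28, adjusted p = 0.0543). Rpl34 was at 1266, 1367 and 1288 FPKM against 1522, 1531 and 1524 FPKM (-0.24, adjusted p = 0.0816), and Rps6 at 1847, 1905 and 1836 FPKM against 2182, 2073 and 2146 FPKM (-0.21, adjusted p = 0.223, limma). In all 3 genes the lin28Tg libraries lay below the WT libraries. Rpl30 and Rpl34 were chosen after their values were seen. The exceptions to the lower levels included Rps27l, at 320, 378 and 342 FPKM against 365, 323 and 357 FPKM (-0.03, adjusted p = 0.905), Rplp0, at 4561, 4385 and 4283 FPKM against 4313, 4434 and 4539 FPKM, and Rps9, at 2593, 2622 and 2582 FPKM against 2569, 2644 and 2683 FPKM. The 35 ribosome biogenesis genes had 0 calls and a median of -0.10, the mitochondrial ribosome genes 2 lower calls and a median of -0.02, and other genes under 1 kb a median of -0.02. Marker sums of other cells also leaned to lin28Tg at 12 h. Dendritic cell markers summed to 97.6 to 172 FPKM in lin28Tg and 42.1 to 93.3 FPKM in WT, and B cell markers to 2.78 to 3.26 FPKM and 1.63 to 1.82 FPKM, both without overlap. Erythroid markers, with 83.3 to 693 FPKM and 26.1 to 103 FPKM, and myeloid markers, with 9.40 to 19.2 FPKM and 6.87 to 11.9 FPKM, overlapped, and the part of these sums in the lower levels was not tested.

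Between let-7Tg and WT at 12 h 0 of 79 genes were called, where 3.24% of all genes were (limma), 1.36% higher and 1.87% lower. Only 2 of the 79 had an unadjusted p under 0.05, while 2654 of all 12239 genes did. The median of the 79 was -0.05, between -0.10 and 0.03 when a library was left out. The libraries of a number deviated together in these 2 groups. The fit with this number as a block also called 0 genes, where 1.96% of all genes were called. In 6 genes let-7Tg lay above WT as deposited and in 4 below, while 13.7% and 11.5% of all genes did so. Without let-7Tg 12h replicate 2, Rpl29 was called lower (-0.51, adjusted p = 0.029). The pseudogene Gm13841, which shares sequence with Rpl29, had 32, 0 and 33 reads in the let-7Tg libraries of 12 h, and its part was not tested. Against let-7Tg, lin28Tg had 1 gene higher and 5 lower at 12 h, where 30.8% of all genes were called, 16.3% higher and 14.5% lower, with a median of -0.14. Leaving out let-7Tg replicate 2 gave -0.22 and leaving out let-7Tg replicate 3 gave -0.08. Erythroid markers summed to 83.3 to 693 FPKM in lin28Tg and 0.774 to 4.34 FPKM in let-7Tg, and their part was not tested. Rpl29 was the higher gene (0.32, adjusted p = 0.0373, limma). The lower genes were Rpl12 (-0.32), Rpsa (-0.31), Rps27 (-0.31), Rpl17 (-0.29) and Rpl30 (-0.25), with adjusted p between 0.0232 and 0.0368. Rpsa, for example, was at 1829, 1739 and 1697 FPKM in lin28Tg and at 2155, 2076 and 2373 FPKM in let-7Tg. In 42 genes lin28Tg lay below let-7Tg as deposited, where 23.5% of all genes did, and in 3 above, where 22.8% did. After scaling lin28Tg lay below in 13 genes, where 23% of all genes did. The count of called genes changed with each library left out, most with let-7Tg replicate 2. Without it 47 genes were called, 46 of them lower, where 28.9% of all genes were called, and between 0 and 1 without any other single library. Gas5 (-0.58) and Snhg1 (-0.44), hosts of small nucleolar RNAs, were also lower in lin28Tg, in a list with 4 of 6 genes lower.

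At 5d the libraries of a number deviated together in all 9 pairs, with correlations of 0.245 to 0.715, so values with the replicate number as a block stand beside those without. The NK cell marker sums did not overlap between any of the 3 genotypes at 5d, with lin28Tg highest and let-7Tg lowest. Of the 5 markers 2 were at 0 in every WT library, 2 in every lin28Tg library and 1 in every let-7Tg library. Eomes, which the study names in lin28Tg CTLs, is among the 5, so the sum is not particular to NK cells. The part of these sums in the differences between genotypes was not tested. Between lin28Tg and WT 0 of 78 genes were called, where 4.34% of all genes were (limma), 2.03% higher and 2.31% lower. Of the 78 genes 9 had an unadjusted p under 0.05, while 2549 of all 13030 genes did. The median of the 78 was -0.04, between -0.08 and -0.02 when a library was left out and -0.09 without scaling. In 30 genes lin28Tg lay below WT as deposited, where 14.9% of all genes did, and in 3 above, where 9.3% did. After scaling lin28Tg lay below in 14 genes, where 11.9% of all genes did. With the replicate block 3 genes were called, where 13.4% of all genes were. Rps27l was higher (0.32, adjusted p = 0.0107), at 371, 411 and 419 FPKM against 308, 351 and 337 FPKM, Rpl24 was higher (0.61, adjusted p = 0.0193) and Rpl35 lower (-0.40, adjusted p = 0.0486), at 121, 114 and 127 FPKM against 193, 160 and 148 FPKM. Each of these 3 had groups that did not overlap, and Rpl24 is at 1.02 to 2.08 FPKM in these libraries.

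Between let-7Tg and WT at 5d 0 of 78 genes were called, where 0.929% of all genes were (limma), 0.576% higher and 0.353% lower. An unadjusted p under 0.05 was found for 23 of the 78 and for 1640 of all 13030 genes. The median of the 78 was -0.12, and -0.06 without scaling, and 71 differences were negative. In 27 genes let-7Tg lay below WT as deposited, where 5.54% of all genes did, and in 4 above, where 11.6% did. After scaling let-7Tg lay below in 45 genes, where 7.99% of all genes did. With the replicate block Rps27l was called lower (-0.27, adjusted p = 0.0381), at 252, 303 and 303 FPKM in let-7Tg, and was the 1 such gene where 4.05% of all genes were called.

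Between lin28Tg and let-7Tg at 5d 6 genes were higher in lin28Tg and 1 lower, where 21.6% of all genes were called, 10.8% higher and 10.7% lower. Rps27l was higher by 0.60 ± 0.11 (adjusted p = 0.00454, limma). Rpl10 was at 1895, 1911 and 1891 FPKM in lin28Tg and at 1609, 1619 and 1653 FPKM in let-7Tg, without overlap and with a difference of 0.33 ± 0.06 (adjusted p = 0.00594). Rpl7a was at 1600, 1470 and 1519 FPKM against 1322, 1356 and 1357 FPKM (0.29 ± 0.06, adjusted p = 0.00847). Rps2 was at 3202, 3111 and 3088 FPKM against 2806, 2817 and 2692 FPKM (0.29 ± 0.09, adjusted p = 0.0468), and its call was lost in all 6 fits that left out a library. Rpl4 (0.21) and Rpl41 (0.21) were the other higher genes, and Rps4l was lower (-0.99, adjusted p = 0.0156), at 0 to 0.352 FPKM against 0.650 to 0.843 FPKM. With the replicate block 10 genes were higher and 1 lower, where 36.3% of all genes were called. The median of the 78 genes was 0.08, between 0.03 and 0.11 when a library was left out, and -0.03 without scaling, when the median of all genes was -0.09. As deposited, 10 genes of lin28Tg lay above let-7Tg and 19 below, where 15% and 27.4% of all genes did. After scaling 29 lay above and 3 below, where 20.6% and 20.5% of all genes did. In the other lists 11 of 77 mitochondrial ribosome genes and 7 of 19 other 5′TOP genes, Npm1 (0.55) among them, were higher in lin28Tg. Of 13 genes of elongation factors and related proteins 5 were higher, with Eef2k (0.82) and Pelo (0.66) the largest. The counts were 2 of 35 for ribosome biogenesis genes and 1 of 13 for genes that control 5′TOP translation. They were 1 of 6 for small nucleolar RNA hosts and 0 of 17 for chaperones of ribosomal proteins. In each list 0 were lower. These counts stand beside the 10.8% of all genes called higher, and the median of the small nucleolar RNA hosts was -0.06.

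The change between stages was then compared between genotypes as an interaction in the fit of 27 libraries. From naive to 12 h lin28Tg and WT differed in 1 ribosomal protein gene, Rps27l, whose increase was smaller in lin28Tg by 0.80 on the log2 scale (difference -0.80, adjusted p = 0.00341, limma), where 7.85% of all genes were called and 5.08% had a negative difference. The increase of let-7Tg and WT differed in 0 genes, where 0.0969% of all genes were called (limma). Here 5 ribosomal protein genes, and 1100 of all 14453 genes, had an unadjusted p under 0.05. Lin28Tg and let-7Tg differed in 2 genes, Rps27l (-0.94, adjusted p = 0.000464) and Rpl10a (-0.38, adjusted p = 0.0467), where 13.4% of all genes were called and 7.61% had a negative difference. From 12 h to 5d lin28Tg and WT differed in Rpl34 (0.38, adjusted p = 0.0491), where 6.42% of all genes were called and 2.18% had a positive difference, and the median of 79 genes was 0.18, or 0.09 without scaling. Let-7Tg and WT differed in 0 genes, where 1.35% of all genes were called (limma). Here 4 ribosomal protein genes, and 1720 of all 14453 genes, had an unadjusted p under 0.05.

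Lin28Tg and let-7Tg differed in 6 genes from 12 h to 5d, where 20.9% of all genes were called, 9.54% with a positive and 11.3% with a negative difference, and the median difference of 79 genes was 0.23, or 0.12 without scaling, with 72 of the 79 positive. Rpl38 (0.54), Rpl10 (0.49), Rps2 (0.49), Rpl34 (0.36) and Rps27l (0.80) fell less or rose more in lin28Tg, and Rps4l (-1.59) went the other way, with adjusted p between 0.00075 and 0.0397 (limma). Without let-7Tg 12h replicate 2 the count was 30, where 21.6% of all genes were called, and without any other single library between 2 and 6. Rps27l kept its call in all 12 fits that left out a library, Rps2 in 1 of them.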

How the data were processed

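RNA of 27 libraries was analysed, 3 per genotype and stage. The authors aligned paired reads with TopHat 2.0.9 and Bowtie 2.0.6 to GRCm38 (mm10), as the submitters' processing notes and the methods give it, and counted them with HTSeq 0.6.1; the annotation release is not given in the sources used here. The values used are FPKM per gene and library as the authors deposited them, in 3 tables with 1 stage each and the same 35275 genes. Deposited group means, DESeq2 fold changes, p-values and cluster numbers were not used. The FPKM values turned out to be whole reads divided by gene length and library total (all 462839 values above 0, within 0.001 reads), which gave the depth. Counting error is small beside the spread between replicates, which are no duplicates (mean chi-square per gene 4.40 to 58.1).

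FPKM were scaled between libraries by trimmed means of log ratios (30% of ratios, 5% of mean levels trimmed at each end), and log2 (scaled FPKM + 0.5) was fitted with limma 3.58.1 in R 4.3.3, with an intensity trend, on the 9 libraries of a stage for genotypes and on all 27 for stages and interactions. A gene was kept if 3 libraries or more reached the FPKM that 10 reads give in a library of median depth, and if its reads over the fit came to at least 15. Benjamini-Hochberg adjustment ran over all genes tested, with a threshold of 0.05. Scripts were tested on simulated data; figures and other steps used Python 3.11.15, numpy 2.4.6, pandas 2.3.3 and matplotlib 3.10.9. FPKM are printed unscaled.

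Same-numbered libraries deviated together in all 9 pairs at 5d (correlation 0.245 to 0.715), but not in naive cells (-0.257 to 0.475) or in all pairs at 12 h (-0.257 to 0.549). At 12 h the 3 pairs of WT and let-7Tg did (0.240 to 0.549), so the numbers were taken as pairs at 5d and between these groups. Named genes are, per comparison, the 4 called genes without overlap between groups with the largest difference in each direction. Also named are genes of described roles, paralogues with their partners, the 5 highest, the 5 lowest and the 5 most variable, and 2 per direction of other lists. A few others were chosen after their values were seen, which is said for some of them. Among the rest are Rpl29 and Rpl28 in naive let-7Tg against WT, and Rps9 between lin28Tg and WT at 12 h. The genes, lists and tests were chosen with earlier results of these data known. Alternatives were another pseudocount, no filter, no scaling, median-of-ratios scaling, the 6 libraries compared alone, the replicate block and leaving out each library.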

Additional observations from a re-analysis of the deposited data

Results flagged for a closer look

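Rps27l stood out because its change between stages differed between genotypes by a test of the difference itself, an interaction in the limma fit of 27 libraries. From naive to 12 h its change in lin28Tg was smaller than in WT by a difference of -0.80 on the log2 scale (adjusted p = 0.00341) and smaller than in let-7Tg by -0.94 (adjusted p = 0.000464). From 12 h to 5d its change in lin28Tg exceeded that in let-7Tg by 0.80 (adjusted p = 0.00075). Rps27l kept its call in all 12 fits of each of these 3 that left out a library. In naive cells the marker sums of other cell types were also highest in lin28Tg, and their part in the Rps27l difference was not tested.

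For other genes the same test passed with less margin. From naive to 12 h Rpl10a differed between lin28Tg and let-7Tg by -0.38 (adjusted p = 0.0467), a call lost in 9 of 12 fits that left out a library. From 12 h to 5d Rpl34 differed between lin28Tg and WT by 0.38 (adjusted p = 0.0491, lost in 11 of 12) and between lin28Tg and let-7Tg by 0.36 (adjusted p = 0.0282). Between lin28Tg and let-7Tg Rpl10 differed by 0.49 (adjusted p = 0.0221, lost in 4 of 12), Rps2 by 0.49 (adjusted p = 0.0397, lost in 11 of 12), Rpl38 by 0.54 (adjusted p = 0.028, lost in 5 of 12) and Rps4l, a low gene, by -1.59 (adjusted p = 0.018, lost in 2 of 12). These adjusted p-values are from limma over all 14453 genes tested.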

How the results depend on the processing

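Medians between stages kept their direction under every alternative run. So did counts of calls from naive to 12 h and from 12 h to 5d, but the genes called changed. Without scaling, 48 genes of WT, 48 of lin28Tg and 54 of let-7Tg were called from naive to 12 h. The main fit shared 38, 32 and 46 of them, and 71.4%, 74.1% and 70.2% of all genes were called. From 12 h to 5d the counts were 40, 40 and 44 genes, of which 36, 32 and 40 were shared. There 67%, 65.9% and 66.7% of all genes were called. From naive to 5d in WT, 46 genes were called without scaling, where 66.5% of all genes were, and 37 of them were shared with the main fit. In that comparison the balance of genes without overlap turned in deposited FPKM. Without scaling the median gene moved to 0.14 (WT), 0.10 (lin28Tg) and 0.24 (let-7Tg) from naive to 12 h and to -0.15 (WT), -0.07 (lin28Tg) and -0.19 (let-7Tg) from 12 h to 5d, and from naive to 5d in WT it was 0.0094. Counts between genotypes moved more, and apart from fewer genes or samples in a fit the cause was not tested.

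A share in brackets, here and for the interactions, is that of all genes called in the same fit. Among naive cells lin28Tg against WT had 2 calls, 6 with the replicate block (36.2%) and 1 to 5 when a library was left out. Lin28Tg against let-7Tg had 7, 3 with no filter, 4 in the 6 libraries compared (39.5%) and 3 to 10 when a library was left out. At 12 h lin28Tg against WT had 1 call, 0 with no filter, 8 without scaling (8.82%) and 28 in the 6 libraries compared (12.2%). It had 0 with the replicate block (8.78%) and 0 when any library was left out. Let-7Tg against WT had 0, and 0 to 1 when a library was left out. Lin28Tg against let-7Tg had 6, 0 with no filter, 21 without scaling (31.4%) and 1 in the 6 libraries compared (26.1%). It had 2 with the replicate block (30%) and 0 to 47 when a library was left out, the 47 without let-7Tg replicate 2 (28.9%). At 5d the replicate block gave 3 calls for lin28Tg against WT (13.4%), 1 for let-7Tg against WT (4.05%) and 11 for lin28Tg against let-7Tg (36.3%). The last had 7, 3 with no filter, 4 without scaling (23.6%) and 3 to 5 when a library was left out. The median gene changed sign in 3 of these comparisons: for naive lin28Tg against let-7Tg from 0.05 to just under 0 without lin28Tg replicate 1 and to -0.03 without let-7Tg replicate 3, for let-7Tg against WT at 12 h from -0.05 to 0.03 without let-7Tg replicate 2, and for lin28Tg against let-7Tg at 5d from 0.08 to -0.03 without scaling.

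Of the interactions, lin28Tg against WT from naive to 12 h had 1 call and 2 without scaling (8.57%). Its median was between -0.18 and 0.011 when a library was left out. From 12 h to 5d it had 1, 0 with no filter, without scaling or with the replicate block, and 0 to 2 when a library was left out. Lin28Tg against let-7Tg from naive to 12 h had 2, 4 with a pseudocount of 1, 11 without scaling (13.9%) and 8 with median-of-ratios scaling. It had 1 with the replicate block (14%) and 1 to 10 when a library was left out, with a median between -0.28 and -0.085. From 12 h to 5d it had 6, 2 with no filter and 2 to 30 when a library was left out, the 30 without let-7Tg 12h replicate 2 (21.6%). The median gene of let-7Tg from 12 h to 5d was between -0.47 and -0.29 when a library was left out.

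Counts of genes without overlap were also taken on scaled FPKM, an alternative chosen after seeing the data. Counts as deposited stand in brackets here. For naive lin28Tg against WT 1 was higher and 17 lower (2 and 10), where 24.4% and 26.3% of all genes were after scaling. For naive lin28Tg against let-7Tg the counts were 5 and 1 (8 and 2), where the shares were 26.7% and 27.6%. At 12 h 0 were higher for let-7Tg against WT (6), where 12.6% of all genes were. For lin28Tg against let-7Tg 13 were lower (42), where 23% were. At 5d 14 were lower for lin28Tg against WT (30), where 11.9% were. For let-7Tg against WT 1 was higher and 45 lower (4 and 27), where 8.66% and 7.99% were. For lin28Tg against let-7Tg 29 were higher and 3 lower (10 and 19), where 20.6% and 20.5% were.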

Other observations

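Rpl29 and the processed pseudogene Gm13841 were looked at together after their values were seen. Gm13841 lies at chr5:115801677-115802159 in GENCODE M21 on GRCm38, and 284 of its 434 stretches of 50 bases stand in an Rpl29 transcript. At 5d Gm13841 was at 5.41, 0 and 2.69 FPKM in WT, 4.52, 0 and 0 FPKM in lin28Tg and 0, 0 and 5.13 FPKM in let-7Tg, where Rpl29 was at 764, 1288 and 834 FPKM, 837, 1291 and 1397 FPKM and 1345, 1328 and 793 FPKM. The 4 libraries in which Gm13841 had reads were the 4 with the lowest Rpl29. At 12 h Gm13841 was at 0 in the WT and lin28Tg libraries and at 4.18, 0 and 4.24 FPKM in let-7Tg, where Rpl29 was at 1016, 1238 and 862 FPKM. In naive cells it was at 0 in WT, at 0.35, 0 and 1.16 FPKM in lin28Tg and at 1.74, 3.24 and 0 FPKM in let-7Tg. Why the pair moved this way was not tested.

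Besides Rpl12, the 7 other genes that lay more than 8-fold below all other 5d libraries in let-7Tg replicate 2 were Exosc5, Gm10275, Gm26917, Gm42418, Hsp90aa1, Rrp1 and Rrp7a. No other library of the series had more than 1 such gene.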
